A study of Hordeum vulgare with 21 samples.

Results

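The net outcome of malting before drying was described by setting whole barley grain after 5 days of germination (DoG5, green malt) against the dry grain it came from. The 2 end states had 3 libraries each, replicates A, B and C, which is 6 of the 21 libraries of the series. Members were taken from the labels alone: the libraries labelled as unmalted mature seed and those labelled with 5 days of germination. Both end states are the cultivar Conrad, a North American spring malting barley with 2 rows, and both come from a single pool of 5 grain samples from 4 growing regions. Dry grain had received no water. Grain of day 5 had been steeped for 38 h to a moisture of 45% and had then germinated for 120 h in malting runs of 110 g dry weight, and it had not been kilned. The remaining 15 libraries, taken at the end of steeping (DoG0) and on days 1 to 4, enter the shared estimate of the spread and are shown only where they place the messages of the end states in time. All replicates come from that one pool, and the labels do not tie the replicate letters to single malting runs. The p-values therefore measure the spread between libraries of a stage, shared over the 21 libraries, and not the spread between crops.

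A mature cereal grain stores messenger RNA made while the seed developed on the mother plant, and this RNA survives drying in the embryo, the scutellum and the aleurone layer. Water uptake starts the breakdown of part of the stored pool and new transcription. In germination the embryo grows, and the scutellum and aleurone secrete enzymes that dissolve the cell walls, protein and starch of the endosperm, which is the purpose of malting. In RNA from whole grain, fewer cells of a type and less RNA per cell cannot be told apart. Names are not paired with the gene IDs in the files, and the reference table of gene names matched 0 of the 35826 IDs. The roles of single messages are therefore not given, the labelled tissue could not be checked against markers, and no sequence is shown. At most 2 IDs that rose and 2 that fell are printed, together with 2 that did not pass the test, and other messages are called by their rank in abundance. The letters after the release code of an ID give its chromosome, and Un stands for sequence placed on none.

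The libraries held 18145400 to 29733605 expected counts, which are estimated read counts per gene. Abundance is given in TPM, which divides by transcript length and by library total, so that levels can be compared between genes. At these depths a transcript of median length had 18.5 to 34.4 counts for each TPM, and 3 counts corresponded to 0.0871 to 0.162 TPM; such limits cover counting error only. Of the 20637 genes that passed the filter on low counts, 14300 differed between the end states, or 69.3% (edgeR quasi-likelihood test, Benjamini-Hochberg adjusted p under 0.05). A fit on the 6 libraries of the end states alone gave 11247, of which 6025 rose and 5222 fell. With TMM scaling, which sets libraries level on their middling genes, 36.8% of tested genes rose and 32.5% fell. Rising genes made up 53.1% of these calls, 64.7% with scaling by library size only and 75.5% with limma on log2(TPM + 1). Over all tested genes the median log2 fold change came to 0.08, 0.37 and 0.46 in these 3 settings, and directions below are relative to the TMM scale unless TPM is named.

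Dry replicate A differed from dry replicates B and C in the shape of its pool and in messages of day 5, which bears on every statement about messages that are new. It did not stand apart by correlation of log2 CPM, with r of 0.959 (A and B), 0.958 (A and C) and 0.957 (B and C) across genes. It did by chi-square of the counts over its degrees of freedom, at 128 (A and B), 123 (A and C) and 57.9 (B and C). Dry A also had the most counts, 25488566 against 19206806 (B) and 18783859 (C). The 10 most abundant genes held 25.4% of TPM in dry A, 15.7% in B and 16.9% in C. Messages that were abundant at day 5 but not in dry grain went the other way. For the 57 genes that were among the 100 most abundant at day 5 only, the median dry level was 14.8% of the day 5 mean TPM for replicate A, 31.0% for B and 26.2% for C. Dry A was the lowest of the 3 for 47 of these 57, against 9214 (67.7%) of the 13617 genes found at 1 TPM or more in all 6 libraries. On TMM-scaled counts per library total (CPM), dry A was lowest for 50.9% of the 57 and for 28.3% of the 13617. By CPM the median dry level of the 57 was 27.3% of the day 5 mean for replicate A, 42.9% for B and 35.2% for C. Why the dry libraries differ was not tested, and the counts of calls, of shared messages and of presence are given with and without replicates B and C. Without B and C 13465 genes differed, 7334 of them higher and 6131 lower, and 13911 were kept. Timing, dips and dry levels are given for all 3 dry libraries.

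**Figure D1:**
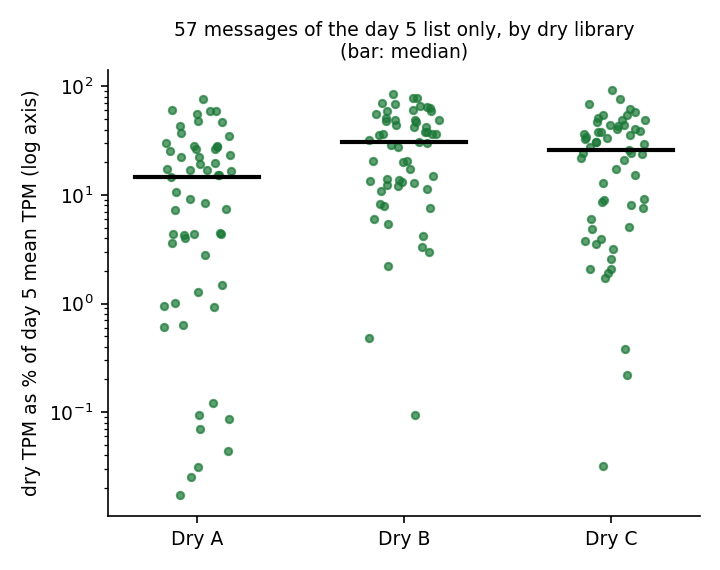
Level of each of the 57 messages that were among the 100 most abundant at day 5 only, in dry replicates A, B and C, as a percentage of its day 5 mean TPM on a log axis; each point is 1 gene and bars are medians. The median is 14.8% in A, 31.0% in B and 26.2% in C, and the lowest points of replicate A reach below those of B and C.

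The transcript pool of dry grain was dominated by a single message, and that of day 5 by none. The most abundant gene of dry grain reached 142855 TPM (A), 101717 TPM (B) and 109886 TPM (C), which is 11.8% of all TPM on average. At day 5 it had 6338, 4179 and 2980 TPM, all far under the dry libraries, with a log2 fold change of -5.35 (SE 0.32, edgeR adjusted p = 7.13e-10). It nevertheless ranked 6 at day 5, and it was the only gene among the 10 most abundant of both end states. The top message of each day 5 library held between 1.01% and 1.29% of TPM. In each library the first 10 genes together accounted for 19.3% ± 5.28 of dry TPM and 6.04% ± 0.421 of day 5 TPM (SD, n = 3), and the first 100 for 35.1% ± 6.27 and 23.0% ± 0.933. It took 210, 446 and 442 genes to make up 50% of TPM in dry replicates A, B and C, and 643, 675 and 767 at day 5. Genes at 1 TPM or more numbered 15436 ± 562 per dry library and 17590 ± 53.1 per day 5 library (SD, n = 3). The last 4 measures did not overlap between the end states, and each gave p = 0.1 in a two-sided exact permutation test, the smallest p that 3 against 3 libraries allow.

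Of the 100 most abundant messages of dry grain, 43 were also among the 100 most abundant of day 5. The lists were drawn by mean TPM over 3 libraries and ended at 975 TPM in dry grain, where the next gene had 973 TPM, and at 1115 TPM for day 5, where the next gene had 1114 TPM. Replicates of a stage also differed in this respect: the libraries' own lists shared 77 to 80 genes in dry grain and 81 to 88 at day 5. Overlap grew with the length of the list, from 19 of the first 50 to 109 of 200, 323 of 500 and 699 of 1000. It was also 43 by CPM, and it was 37 with dry replicate A alone standing for dry grain. The plot of mean TPM in the end states shows the 3 groups that result, 43 genes in both lists and 57 in each list alone.

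**Figure D2:**
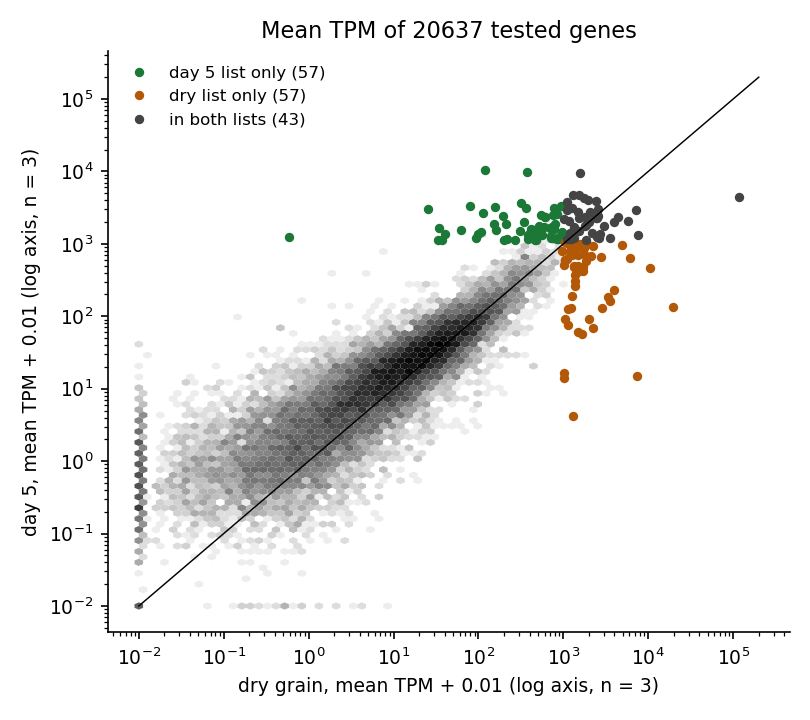
Mean TPM + 0.01 of the 20637 tested genes in dry grain (x) and at day 5 (y), both on log axes with n = 3 libraries; grey cells hold more genes where darker, coloured points are the most abundant 100 of each end state, and the line marks equal TPM. The 57 genes of the dry list only lie right of the line, the 57 of the day 5 list only lie left of it, and the dry message at 11.8% of TPM stands alone at the far right.

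No message of the dry list had a mean under 0.1 TPM at day 5. The list ended at 975 TPM, so only a very large fall could have brought a message under that limit. All 100 of the dry list kept a mean of at least 4.14 TPM at day 5, and 99 had 1 TPM or more in each of the 3 day 5 libraries. By mean TPM at day 5, 49 were still at 1000 or more, 41 lay between 100 and 1000, 9 between 10 and 100, and 1 under 10. By rank, 64 were within the first 200 of day 5, 85 within the first 1000, and 4 lay beyond rank 5000. The lowest was the message ranked 70 in dry grain, which had 1157, 2331 and 360 TPM in dry replicates A, B and C and 0.13, 9.02 and 3.28 TPM at day 5 (log2 fold change -8.87, SE 1.80, edgeR adjusted p = 0.000306). Its levels were uneven within both end states, and the 0.13 TPM of day 5 replicate A came from 4 counts. Its counts include reads shared with similar genes.

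In the count test 82 of the 100 dry messages fell, 8 rose and 10 did not pass, where 32.5% of all tested genes fell and 36.8% rose. Falls in the list numbered 70 with scaling by library size only and 61 with limma on log2(TPM + 1). Over all tested genes these settings gave 4962 and 3449 falls. The list was chosen on the dry libraries that also enter this contrast, so these counts describe it and support no excess of falls. The median log2 fold change of the list was -1.54, against 0.08 over all tested genes. Falls of at least 8-fold numbered 24 in the list, while 3.14% of tested genes fell that far. All 10 of the most abundant messages of dry grain fell, with no overlap in TPM between the libraries of the end states, and 5 of the 10 stayed among the 100 most abundant of day 5. All 57 messages of the dry list only fell on the TMM scale. By TPM, which also chose them, 48 of these 57 lay lower at day 5 without overlap, as did 15.4% of all tested genes.

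**Figure D3:**
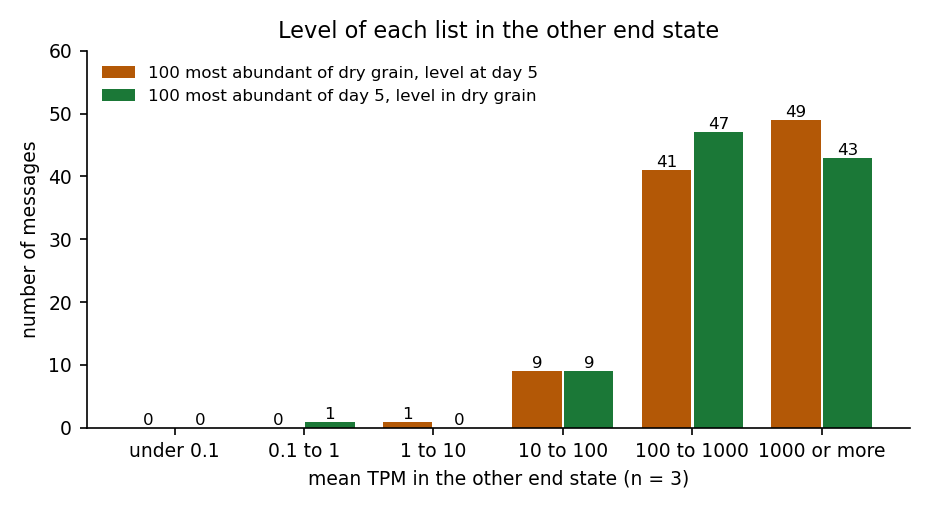
Number of messages by mean TPM in the other end state (n = 3), for the 100 most abundant messages of dry grain (level at day 5) and of day 5 (level in dry grain). No message of either list had a mean under 0.1 TPM in the other state, and 49 of the dry list and 43 of the day 5 list had 1000 TPM or more there.

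The 2 IDs chosen for leaving the list from the highest dry level were HORVU.MOREX.r3.4HG0333470 and HORVU.MOREX.r3.5HG0500190, ranked 2 and 3 in dry grain. HORVU.MOREX.r3.4HG0333470, on chromosome 4H, had 30162, 16424 and 11934 TPM in dry replicates A, B and C and 119, 66.5 and 212 TPM at day 5. Its mean TPM was 147-fold lower at day 5, where it ranked 1268 (log2 fold change -7.91, SE 0.69, edgeR adjusted p = 2.98e-08). The message had already fallen to a mean of 3771 TPM at DoG0, 686 at day 1 and 103 at day 2, and then lay between 124 and 140 TPM on days 3 to 5.

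HORVU.MOREX.r3.5HG0500190, on chromosome 5H, had 22217, 4625 and 4840 TPM in dry grain and 599, 284 and 518 TPM at day 5. Replicate A was far above the other dry libraries, so the log2 fold change of -5.27 (SE 0.77, edgeR adjusted p = 9.95e-06) became -3.78 without dry A and -6.43 without B and C. This ID had a short transcript, 0.10 of the median length as the ratio of counts to TPM gives it, which places it high by TPM: it had 1805 CPM in dry grain, against 42336 CPM for HORVU.MOREX.r3.4HG0333470. Its mean was lowest at day 2, with 126 TPM, and higher again at day 5, with 467 TPM.

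No abundant message of day 5 was under 0.1 TPM in any dry library, a limit far below the 1115 TPM at which that list ended. How far the dry levels of these messages in replicates B and C are those of resting grain was not tested, so their presence there has that limit. Of the 100 most abundant at day 5, 98 had 1 TPM or more in every dry library, and 99 had a dry mean of at least 10 TPM. By dry mean, 43 had 1000 TPM or more, 47 lay between 100 and 1000 and 9 between 10 and 100. By rank, 86 were within the first 1000 of dry grain and 2 lay beyond rank 5000. With dry replicate A alone, 9 of the 100 were under 10 TPM and 2 under 1 TPM, while 2 were under 10 TPM in replicate B and 2 in C. The message closest to new ranked 80 at day 5 and 16912 in dry grain. It had 0.21, 1.15 and 0.39 TPM in dry replicates A, B and C, from 4, 15 and 5 counts, and 1417, 1294 and 977 TPM at day 5 (log2 fold change 10.54, SE 0.95, edgeR adjusted p = 4.33e-08). It had a mean of 1.73 TPM at DoG0, 15.2 at day 1, 430 at day 2 and 1043 at day 4.

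In the count test 57 of the 100 messages of day 5 rose, 25 fell and 18 did not pass, beside the 36.8% and 32.5% of all tested genes. This list too was chosen on libraries of the contrast, and its counts are a description. The median log2 fold change of the list was 0.74, and 18 of its messages rose at least 8-fold, as did 9.34% of tested genes. The 25 that fell are all members of both lists, and this number depended on the scale: when library size alone set the scale 17 of the day 5 list fell, and 11 did with limma on log2(TPM + 1), where 72 rose. Of the 57 messages in the day 5 list only, 49 rose and 8 did not pass, and 54 lay higher at day 5 without overlap in TPM, which also chose them, as did 49.8% of all tested genes. Among the 10 most abundant of day 5, 8 rose, 1 fell and 1 did not pass, and 8 were among the 100 most abundant of dry grain. Without dry replicates B and C, 56 of the day 5 list rose and 25 fell, and 80 of the dry list fell and 8 rose.

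The 2 IDs chosen for entering the list at the highest level ranked 1 and 2 at day 5. HORVU.MOREX.r3.3HG0330820, on chromosome 3H, had 3.33, 312 and 39.9 TPM in dry replicates A, B and C and 8666, 10140 and 12895 TPM at day 5. Its log2 fold change was 5.99 (SE 1.03, edgeR adjusted p = 6.16e-05), 8.49 without dry B and 10.75 without dry B and C, so the size of the rise rests on which dry libraries are used. HORVU.MOREX.r3.3HG0330820 averaged 119 TPM at DoG0, 4347 at day 1 and 15064 at day 2, its highest stage mean.

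HORVU.MOREX.r3.UnG0764920 had 8.57, 752 and 373 TPM in dry replicates A, B and C and 11290, 7166 and 11066 TPM at day 5. All day 5 libraries were above all dry ones, and the dry libraries spanned more than a log10 unit. The log2 fold change was 4.24 (SE 0.90, edgeR adjusted p = 0.000445), 5.28 without dry B and 9.30 without dry B and C. It took longer than the other ID to reach its highest stage mean, with a mean of 131 TPM at DoG0, 1447 at day 1, 4080 at day 3 and 6651 at day 4, and the highest at day 5. Both IDs carried reads shared with similar genes, so their split of reads is uncertain. The same limit holds for the top message of dry grain, for HORVU.MOREX.r3.4HG0333470 and for HORVU.MOREX.r3.2HG0178690 below, whose counts were not whole either. Counts of HORVU.MOREX.r3.5HG0500190 and HORVU.MOREX.r3.4HG0333810 were whole.

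**Figure D4:**
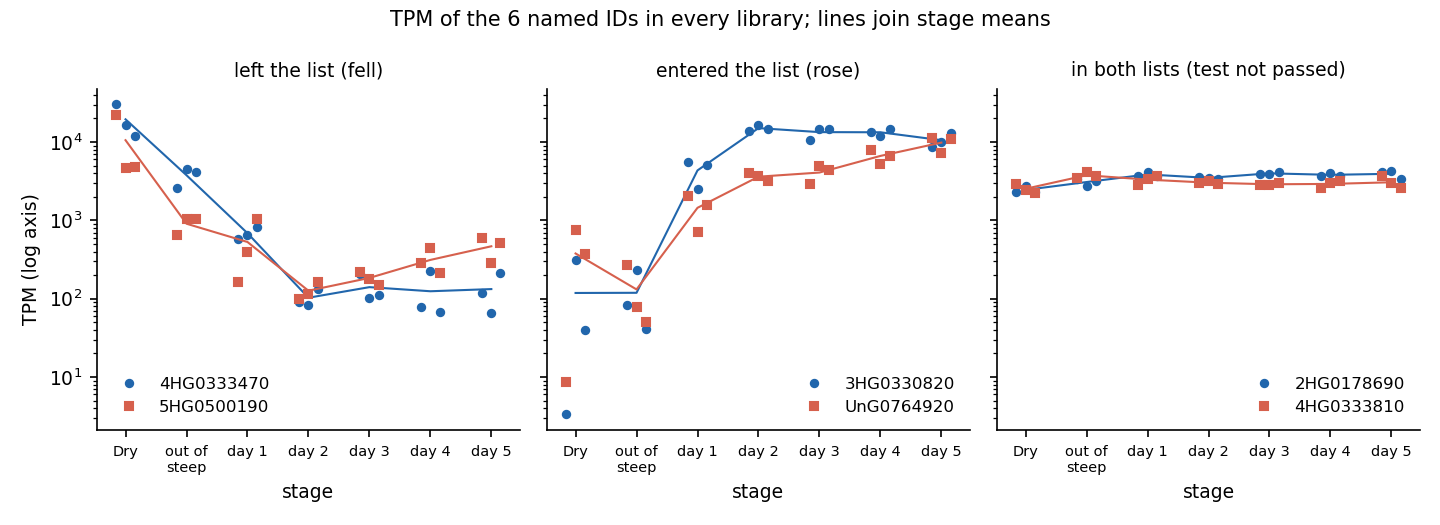
TPM on a log axis of the 6 named IDs in every library of the 7 stages; points are libraries in the order A, B and C, lines join stage means, and the panels hold 2 IDs each. The falling IDs had most of their fall behind them by day 2, the rising IDs show dry replicate A far under B and C, and the 2 IDs in both lists lie close together at every stage.

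On the TMM scale the 43 messages in both lists did not all hold their level: 25 fell, 8 rose and 10 did not pass, with a median log2 fold change of -0.66. By TPM the group as a whole did not fall. Its median TPM averaged 1897 (SD 162) over the dry libraries and 2126 (SD 37.2) over those of day 5. With limma on log2(TPM + 1), 16 of the dry list rose and 11 of the day 5 list fell. These calls were not counted for the 43 alone. The 2 most abundant of the 10 that did not pass on the TMM scale were HORVU.MOREX.r3.2HG0178690 and HORVU.MOREX.r3.4HG0333810. HORVU.MOREX.r3.2HG0178690 had 2334, 2722 and 2293 TPM in dry grain and 4109, 4320 and 3371 TPM at day 5, without overlap. On TMM-scaled counts its log2 fold change was 0.08 (SE 0.13, edgeR adjusted p = 0.607), whereas it was 0.38 with scaling by library size only and 0.68 with limma on log2(TPM + 1), both past the threshold. Whether this message rose thus depended on the scale. HORVU.MOREX.r3.4HG0333810 had 2927, 2456 and 2217 TPM in dry grain and 3646, 2987 and 2563 TPM at day 5, and these ranges overlapped. Its log2 fold change was -0.36 (SE 0.20, edgeR adjusted p = 0.117), 0.27 on the TPM scale, -0.49 without day 5 replicate A, -0.52 without dry replicate C and -0.79 without dry B and C, and the last 3 values passed the threshold.

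Some messages of both lists were far lower between the end states, though none was under 1 TPM in any of the 21 libraries. Of the 43 messages in both lists, 7 had a stage mean between the end states under 25% of the lower end state, and all 7 were lowest at DoG0 (3) or at day 1 (4). The message ranked 6 in dry grain and 21 at day 5 averaged 7139 TPM when dry, 466 at DoG0, 52.7 at day 1, 1292 at day 2 and 2928 at day 5. The one ranked 28 in dry grain and 26 at day 5 went from 2237 TPM to 14.9 at day 1 and back to 2590, with a net log2 fold change of -0.35 (SE 0.45, edgeR adjusted p = 0.494). The one ranked 40 and 48 went from 1860 TPM to 25.1 at DoG0 and back to 1801, and on TMM-scaled counts it passed the test as lower (log2 fold change -0.66, SE 0.20, edgeR adjusted p = 0.00662). A comparison of the end states alone shows none of these dips. Over all 13617 genes kept at 1 TPM or more, 548 dipped under 25% of the lower end state and 310 went over 4 times the higher one, of which 201 were highest at DoG0.

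The stages between, whose libraries did not choose the lists, place the exchange in time. The dry and day 5 means they are set against did choose the lists. Part of the first fall and of the last rise may thus come from that choice. The timing was not counted over all tested genes, so the counts describe the lists only. The 57 messages of the dry list only went from 13.2% ± 3.84 of dry TPM to 4.31% ± 0.503 by DoG0, 2.30% ± 0.327 by day 1 and 2.92% ± 0.0575 by day 5 (SD, n = 3). At DoG0 40 of these 57 were at or under 50% of their dry mean, and 43 were at day 1. Of the 57, 22 were lower at DoG0 than they were to be at day 5, 31 at day 1, 41 at day 2, 33 at day 3 and 41 at day 4. The 57 messages of the day 5 list only went from 2.44% ± 0.804 to 2.72% ± 0.114 by DoG0, 5.30% ± 0.580 by day 1, 11.2% ± 0.660 by day 2 and 12.00% ± 0.399 by day 5. Those at 50% or more of their day 5 mean numbered 10 at DoG0, 20 at day 1, 44 at day 2, 54 at day 3 and 57 at day 4. The 43 messages in both lists went from 21.5% ± 2.54 to 8.96% ± 0.568 by day 1 and 10.7% ± 0.597 by day 5. Their fall rested on the top message of dry grain: the other 42 held 9.72% ± 0.474 of dry TPM, 8.32% ± 0.522 by day 1 and 10.3% ± 0.428 by day 5.

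**Figure D5:**
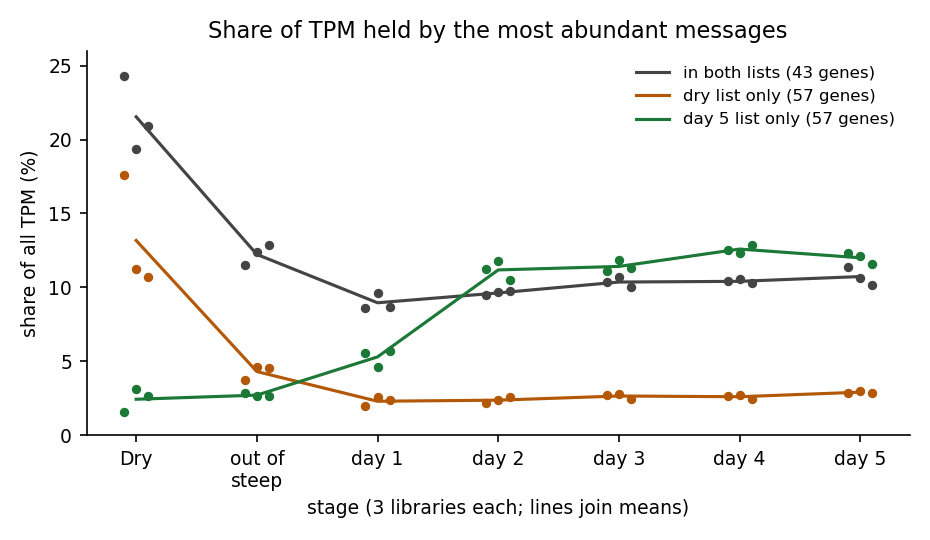
Share of all TPM held at each stage by the messages in both lists (43 genes), in the dry list only (57) and in the day 5 list only (57); points are libraries and lines join the means of 3 libraries. The dry list only goes from 13.2% in dry grain to 2.30% at day 1, and the day 5 list only from 2.72% at DoG0 to 11.2% at day 2. The fall of the messages in both lists rests on the top message of dry grain, without which they hold 9.72% in dry grain and 10.3% at day 5.

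Over the whole table, messages gained outnumbered messages lost. A gene was counted as present at 1 TPM or more in all 3 libraries of a stage and as absent under 0.1 TPM in all 3. By these limits 14179 genes were present in dry grain and 16695 at day 5, and 13617 were kept in both. Only 19 were present in dry grain and absent at day 5, and 263 were the reverse. The kept genes made up 98.9% ± 0.209 of dry TPM and 95.8% ± 0.293 of day 5 TPM (SD, n = 3). New messages made up 0.190% ± 0.00803 of day 5 TPM, and lost ones 0.0139% ± 0.00346 of dry TPM.

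The 19 lost messages were of modest level, with a median dry mean of 3.78 TPM and 4 at 10 TPM or more, the highest at 31.7 TPM. Of these, 11 had no count in any day 5 library. Their mean was under 0.1 TPM for 1 of the 19 at DoG0, 2 at day 1 and 15 at day 2. The number lost was 33 without day 5 replicate A and 254 where absence meant under 1 TPM. Fewer libraries make absence easier to meet.

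The 263 new messages had a median day 5 mean of 3.11 TPM, with 37 at 10 TPM or more and the highest at 119 TPM, and 141 had no count in any dry library. Those at 50% or more of their day 5 mean numbered 7 at DoG0, 69 at day 1, 133 at day 2, 214 at day 3 and 253 at day 4. The number new was 405 without dry replicate B and 777 with dry replicate A alone, 1520 where absence meant under 1 TPM, and 175 by CPM. With each of these settings it exceeded the number lost, which was 27, 46, 254 and 22 in the same order.

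Large changes were found mostly among genes of low mean level over both end states. The 100 most abundant of dry grain, chosen on that state alone, held 24 falls of at least 8-fold, and those of day 5 held 18 such rises. Tested genes were ranked by log2 CPM with the means of dry grain and day 5 weighted equally, a ranking chosen after values were seen. A message nearly absent from an end state ranks lower through its own large change, so large changes at low rank are partly built into the ranking. Of the first 100, 31 rose and 45 fell, but only 1 rose and 5 fell by at least 8-fold. Ranked instead by the mean over all 21 libraries, of which 3 are dry, the first 100 held 48 that rose and 25 that fell, so the direction among the most abundant genes turned with the ranking. Of the 10637 genes beyond rank 10000 by the equal weighting, 4506 rose and 2298 fell, and 1793 and 494 did so by at least 8-fold. Over all tested genes 1928 rose and 647 fell by 8-fold or more. Of the 4000 genes that followed rank 1000, 1955 fell and 1090 rose by the equal weighting, and 1771 and 1264 by the mean over all libraries. Dry replicate A held no count for 972 of the 1928 genes that rose at least 8-fold, B for 764 and C for 886. Without dry B and C, rises of this size numbered 2453 and falls 747.

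The listed messages had short transcripts as the ratio of counts to TPM gives length, which drawing the lists by TPM favours, since TPM divides by length. Transcript lengths themselves were not used, and the ratio may differ from them. The median relative length was 0.52 for the dry list and 0.66 for the day 5 list, against 0.98 over all tested genes with a length. The 57 messages of the dry list only had a median of 0.50, and those of the day 5 list only 0.81. Across the 20472 tested genes with a length, Spearman's rho between log2 fold change and length was 0.243, as a description over genes that share libraries. In a fit with the trend of log2 CPM on length removed, 70 of the dry list fell, against 82 in the main fit. Of the day 5 list 17 fell, against 25. At least 8-fold, 534 genes fell and 1966 rose, against 647 and 1928. HORVU.MOREX.r3.5HG0500190 then had a log2 fold change of -4.20, against -5.27. Counts that were not whole, as when reads are shared with similar genes, were common in the lists. They were found for 56 of the dry list and 61 of the day 5 list (tolerance 1e-09) somewhere among the 6 libraries, against 14.0% of all tested genes. That share was not matched for the number of reads, which was high for the listed messages. For messages with such counts the split between near-identical copies is uncertain.

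IDs are numbered in steps of 10 within a chromosome, and some listed messages had neighbouring numbers. With at most 100 between successive numbers, 19 genes of the dry list fell into 8 runs, the longest of 5 genes, and 18 genes of the day 5 list into 8 runs of up to 3. Of the new messages, 65 of 263 were in 28 such runs of up to 4, and none of the 19 lost messages was. The share in runs depends on the size of a set, being 99.2% over all tested genes, so sets of unlike size cannot be compared. By chromosome code the dry list had most members on 5H (21), 1H (19) and 2H (18), and the day 5 list on 5H (17), 6H (17) and 2H (16). Of all tested genes 16.0% were on 5H, 16.6% on 2H, 12.9% on 1H and 12.0% on 6H. Over all tested genes the percentage that rose was 36.0 to 37.6 on the 7 chromosomes, and the percentage that fell was 31.9 to 33.5.

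For both lists and over all tested genes, replicates varied more in dry grain than at day 5. The median SD of log2 CPM between the 3 libraries was 0.51 in dry grain and 0.26 at day 5 for the dry list, 0.46 and 0.22 for the day 5 list, and 0.34 and 0.24 over all tested genes. In dry grain the median SD was 0.66 for the 57 messages of the day 5 list only, 0.58 for the 57 of the dry list only and 0.40 for the 43 in both. Dry replicate A was the highest of the 3 by TPM for 35 of the 57 in the dry list only and for 1 of the 57 in the day 5 list only, against 16.0% of all tested genes. The mean that chose the dry list is itself raised by replicate A.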

How the data were processed

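Expected counts and TPM per gene were deposited by the authors, 1 column per library. The submitters' processing notes list STAR and RSEM, without versions or what each was used for. Genome build, annotation, strand setting and filters: not given in the sources used here. Libraries were poly-A selected and stranded, per the labels' protocols. The counts were rounded and filtered with filterByExpr by stage (minimum count 10, minimum total 15), scaled by TMM and fitted with edgeR 4.0.16 (R 4.3.3) as 7 stage means over 21 libraries. The contrast was DoG5 minus Dry, with Benjamini-Hochberg adjustment over the 20637 tested genes. Standard errors are the absolute log2 fold change over the square root of F. Log2 CPM used a prior count of 2. Relative length is the median ratio of count to TPM, scaled per library. Members, lists and limits were chosen with earlier results of these data known. The rule for named IDs took, by TPM, the 2 highest that left the dry list of 100 with a fall, the 2 highest that entered the day 5 list with a rise (adjusted p under 0.05, no overlap) and the 2 highest in both lists that did not pass. Gene lists by name could not be used, as no ID matched. Alternatives were DESeq2 1.42.0, limma 3.58.1, other scalings, filters and limits, and leaving out libraries; leaving out dry B and C together was chosen after seeing the data. Simulated data for this contrast held 20637 genes, 100 of them changed by 2-fold and 100 by 4-fold. Of these 61 and 82 were recovered, with 5 false calls. In the data 69.3% of tested genes differed, and the number of false calls with so many changes was not tested. No pair of libraries from an end state was alike to within counting noise, with chi-square divided by its degrees of freedom at 28.2 to 128. Replicate letters were not used as a block.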

Additional observations from a re-analysis of the deposited data

How the results depend on the processing

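Across 32 settings, 299 of 344 recomputed values kept their direction and side of the threshold, or stayed within 1.5 times or 1 SD of the reported value. With limma on log2(TPM + 1) and log2(TPM + 0.1), 3449 and 3417 genes fell, 16 of the dry list rose in both and 11 of the day 5 list fell in both. At least 8-fold, 750 genes changed, 591 rose and 159 fell with the first, and 313 fell with the second. With these fits the log2 fold change of HORVU.MOREX.r3.4HG0333810 was 0.27, of opposite sign. With dry replicate A alone, whose spread is then assumed to be that of the other stages, 46 genes were lost and 777 new, the dry list held 42.4% of dry and 11.2% of day 5 TPM, the day 5 list held 25.9% of dry TPM, and HORVU.MOREX.r3.2HG0178690 had -0.10. Presence at 1 TPM with absence under 1 TPM gave 254 lost and 1520 new, 5 TPM with 0.1 TPM gave 8 and 47, and 10 TPM with 1 TPM gave 105 new and 7117 kept; CPM gave 175 new. DESeq2 gave no adjusted p for HORVU.MOREX.r3.5HG0500190 and HORVU.MOREX.r3.3HG0330820. As shares of expected counts, the dry list held 23.4% in dry grain and 8.89% at day 5, and the day 5 list 16.2% and 17.0%. Lists chosen on dry replicate A, B or C alone held 11.2%, 14.3% and 14.6% of day 5 TPM. Leaving out 1 library at a time, 21 (without dry C) to 33 (without day 5 A) were lost, 286 to 405 (without dry B) were new, the dry list held 12.9% to 14.5% of day 5 TPM, and HORVU.MOREX.r3.2HG0178690 had -0.039 to 0.22. The cause of these shifts was not tested, except that fewer libraries make presence and absence easier to meet. Same-lettered libraries of the end states deviated together with r = 0.0726 (A), -0.0199 (B) and 0.157 (C), so the letters were not taken as pairs; with the replicate block 7501 genes rose and 6620 fell. Depth limits the statements on absence, since 3 counts equal 0.0871 to 0.162 TPM for a median transcript, so an absent gene may hold a few reads.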
